A study of Mus musculus with 4 samples.

Results

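Transcripts of 10 genes that mark the stem cell regions and the outer layers of the resting hair follicle were followed in mouse epidermis that lacks the calcium sensors STIM1 and STIM2. The 10 genes (Krt75, Krt79, Sox9, Cd34, Lgr5, Lgr6, Lhx2, Lrig1, Plet1 and Postn) were taken by name from a gene table that lists 56493 genes. All 10 had a count in at least 1 library, and 3 of them (Krt75, Krt79 and Postn) passed the count filter that 4243 genes of the table passed. The table holds 2 libraries from conditional double knockouts (cKO), in which a Cre recombinase under the keratin 14 promoter removes Stim1 and Stim2 from epithelial cells, and 2 libraries from controls with both genes floxed (Stim1/2fl/fl). Both groups therefore carry the floxed alleles, and whether the controls also carry Cre is not given in the sources used here, nor are age and sex. The epidermis of shaved back skin was peeled from the dermis with sodium thiocyanate, and its total RNA was read at transcript 3′ ends. Nothing in the labels says whether the libraries of a group came from separate mice, so the p-values below measure the spread between these libraries only.

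A hair follicle is a downgrowth of the epidermis. Its bulge holds slow-cycling stem cells (marked in the mouse by Cd34, Lgr5, Lhx2 and Sox9, and by the keratin Krt15). Above the bulge, the isthmus and the junction with the sebaceous gland contain other stem cell pools, marked by Lrig1, Lgr6 and Plet1, and the infundibulum, which opens to the skin surface, is lined by cells that make keratin 79. Keratin 75 belongs to the companion layer, a single sheet of cells between the inner and outer root sheaths. Most basal cells of the epidermis and of the outer root sheath make keratin 14, so the Cre used here acts in follicle and interfollicular epithelium alike.

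The members with enough counts to be tested are 2 type II keratins and a secreted matrix protein, and their start regions are shown because the results turn on these 3 genes. The sequences are those of RefSeq on GRCm38.p6, in which 8 of the 10 genes had an entry. Each runs 5′ to 3′ on the gene's strand, from 250 bases before to 50 bases after the annotated start. Capitals mark the letters GGAAA (the core that NFAT factors bind, downstream of store-operated calcium entry) and TATAAA (the TATA element) on either strand, and no marked match overlaps another. Krt75 is at chr15:101573855-101574154 on the minus strand, Krt79 at chr15:101940275-101940574 on the minus strand, and the 2 Postn starts in that table at chr3:54359017-54359316 and chr3:54360857-54361156 on the plus strand.
Krt75: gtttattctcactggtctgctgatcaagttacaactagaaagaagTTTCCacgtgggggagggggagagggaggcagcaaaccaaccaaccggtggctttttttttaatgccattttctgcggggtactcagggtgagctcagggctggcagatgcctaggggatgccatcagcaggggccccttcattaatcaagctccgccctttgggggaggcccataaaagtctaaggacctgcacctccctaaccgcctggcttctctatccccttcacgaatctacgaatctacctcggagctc
Krt79: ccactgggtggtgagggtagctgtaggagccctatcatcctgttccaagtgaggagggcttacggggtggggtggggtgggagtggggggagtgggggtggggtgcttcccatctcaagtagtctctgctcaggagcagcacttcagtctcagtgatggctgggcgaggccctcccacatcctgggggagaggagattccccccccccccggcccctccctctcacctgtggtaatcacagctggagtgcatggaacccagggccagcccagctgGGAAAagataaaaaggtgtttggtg
Postn, first start: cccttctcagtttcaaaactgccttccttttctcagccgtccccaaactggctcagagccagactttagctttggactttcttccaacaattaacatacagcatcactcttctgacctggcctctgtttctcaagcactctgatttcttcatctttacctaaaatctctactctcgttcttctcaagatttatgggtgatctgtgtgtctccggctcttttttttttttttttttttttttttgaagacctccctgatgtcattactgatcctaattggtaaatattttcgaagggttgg
Postn, second start: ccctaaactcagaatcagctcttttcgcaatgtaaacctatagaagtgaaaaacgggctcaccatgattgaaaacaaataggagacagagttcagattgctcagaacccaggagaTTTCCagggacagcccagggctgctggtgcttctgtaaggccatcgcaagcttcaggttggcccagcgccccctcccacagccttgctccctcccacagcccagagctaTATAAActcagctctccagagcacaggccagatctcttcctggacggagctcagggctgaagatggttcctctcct
The windows of Krt75, of Krt79 and of the second Postn start each held 1 match to GGAAA, and the second Postn window also held TATAAA, while the first Postn window held neither. Of all windows of this length in the RefSeq table (32851), 61.3% hold GGAAA and 13.6% hold TATAAA, and a match is a description of the letters and not evidence of a site.

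The libraries were shallow, with 118858 to 322426 counts each, and cKO replicate 2 was the shallowest. Levels below are normalised counts (CPM, the count per 1000000 of the library size, taken over tested genes after TMM scaling). On this scale 1 count was worth 5.34 CPM in control replicate 1, 3.19 in replicate 2 of the controls, and 4.04 and 11.2 in the cKO libraries. A count of 0 allows up to 3 counts, which is 9.58 to 33.7 CPM. Intervals on counts and ratios are 95% intervals that cover counting error only. The targeted Stim1 had 24 and 62 counts in control (128 and 198 CPM) and 23 and 6 in cKO (93.0 and 67.4 CPM). Stim2, also targeted, had 3 and 18 counts in control (16.0 and 57.5 CPM) and 0 and 1 in cKO (0 and 11.2 CPM). The observed CPM of both genes lay below control in each cKO library. For both genes the counting interval of control replicate 1 overlapped those of both cKO libraries. Stim1 did not pass the test (edgeR adjusted p = 0.671), and Stim2 was under the filter. Reads at the 3′ end need not cover the deleted exons, which are not given in the sources used here, so these counts are no check of the deletion. All 4 interfollicular markers (Krt1, Krt5, Krt10 and Krt14) had counts in every library. Their median log2 fold change was 1.14, with 0 called and 2 higher and 0 lower at an unadjusted p under 0.05 (edgeR). DESeq2 and limma-voom each called 1 as higher. Krt1 had 69.4 and 83.0 CPM in control and 332 and 146 CPM in cKO. Krt10 had 1612 and 3711 CPM in control and 3211 and 1483 CPM in cKO, and Krt5 and Krt14 are given below. The 9 endothelial markers had at most 2 counts in total in any library.

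Together the 10 genes gave 1123 counts. Krt75 contributed 40.3% of them, Krt79 39.9%, Postn 8.37% and the other 7 genes 11.4%. Their sum was 859 CPM in control replicate 1, 1421 in control replicate 2, 1411 in cKO replicate 1 and 1888 in cKO replicate 2, so the groups overlapped. The log2 ratio of the cKO mean to the control mean was 0.53, or -0.39 without Krt79, the most abundant of the 10 by mean CPM. The overlapping sums hide members that lay far apart between the groups in opposite directions, as the plot of each gene by library shows.

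**Figure D1:**
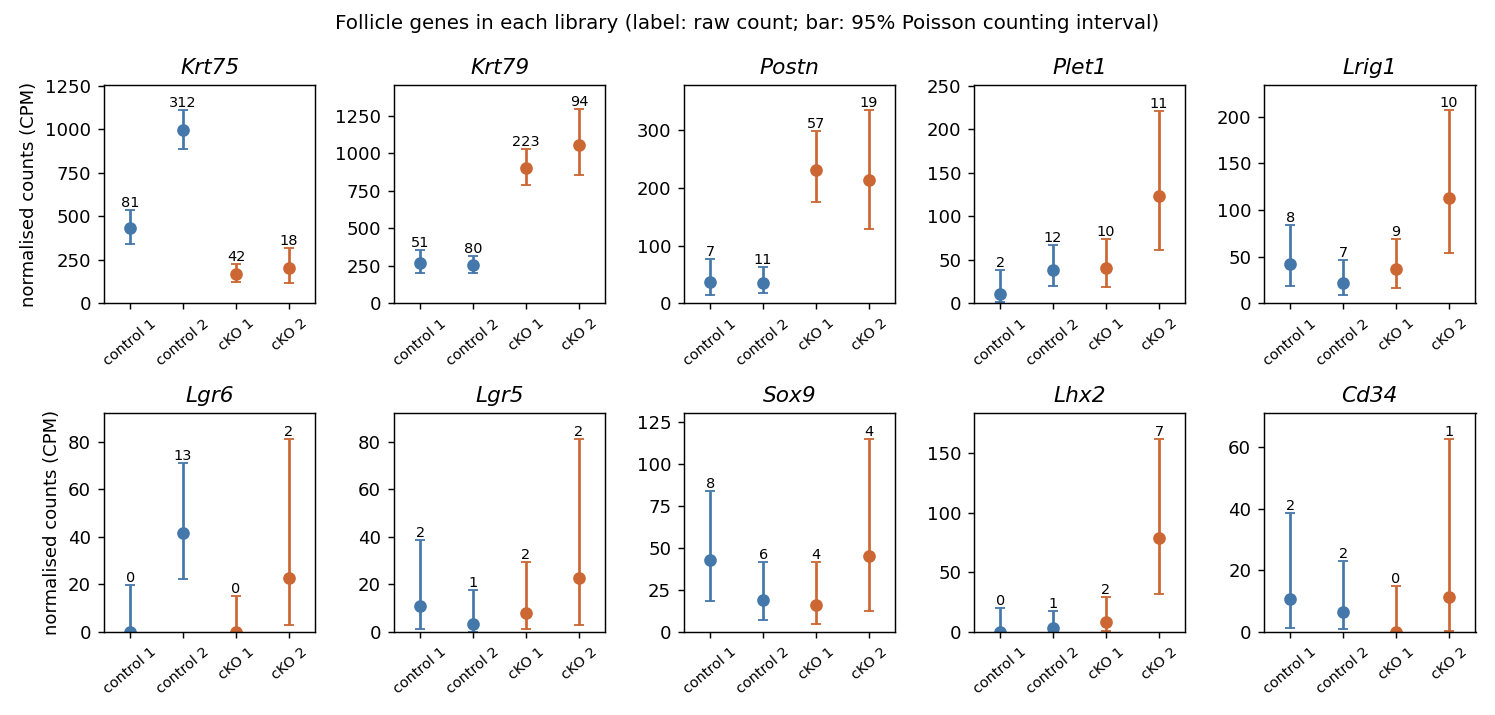
Normalised counts (CPM, vertical axis, each panel on its own scale from 0) of the 10 follicle genes in 2 control (blue) and 2 cKO (orange) libraries, with the raw count above each point and bars for the 95% Poisson interval. Krt79 and Postn sit higher and Krt75 lower in both cKO libraries, while the other 7 genes rest on at most 13 counts per library.

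Postn rose in cKO. It encodes periostin, a secreted matrix protein that is made by fibroblasts and is counted here among the bulge genes. The table, on GRCm39 per the submitters' processing notes, places it on chromosome 3 from 54268530 to 54298458, plus strand. Control replicates 1 and 2 had 7 and 11 counts (37.4 and 35.1 CPM), and cKO replicates 1 and 2 had 57 and 19 counts (230 and 214 CPM). Both cKO libraries lay above both controls, and the libraries within each group were close to each other. Postn averaged 36.2 ± 1.57 CPM in control and 222 ± 12.0 CPM in cKO (SD, n = 2 each). The ratio of pooled counts was 6.28 (3.72 to 11.2). On the log2 scale the fitted change of Postn was 2.61 ± 0.53 (SE), with an adjusted p = 0.0331 by the edgeR quasi-likelihood test. It was the 1 call among the 3 members tested, where 0.848% of all tested genes were called in either direction and 0.660% as higher. The call ended with DESeq2 (adjusted p = 0.0552), limma-voom (0.0692), library totals as the only scaling (0.0639), the replicate number as a block (0.173) and without control replicate 1 (0.0870) or control replicate 2 (0.124), while the log2 fold change stayed between 2.36 and 2.67.

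Since fibroblasts make periostin, the levels of other fibroblast genes are given beside it. Of the 14 fibroblast and dermal matrix markers, 11 had a count in any library, and Pdgfra, Fbn1 and Col5a1 had 0 in all 4. Their summed level was 502 and 278 CPM in control replicates 1 and 2, 162 in cKO replicate 1 and 1169 in cKO replicate 2. The counting intervals of Postn in the cKO libraries (175 to 299 and 129 to 333 CPM) overlapped, so no order of those libraries can be read from it. Of the 4 fibroblast genes that could be tested (edgeR), 0 were called, 0 had an unadjusted p under 0.05 and DESeq2 and limma-voom called 0. Their median log2 fold change was 0.31 by edgeR, 0.40 by DESeq2 and -1.04 by limma-voom, so its sign depended on the tool. By edgeR it was -2.06 without cKO replicate 2 and 1.31, among 5 tested, without cKO replicate 1. Vim is the intermediate filament of mesenchymal cells. It had 33 and 37 counts in control (176 and 118 CPM) and 27 and 33 in cKO (109 and 371 CPM). Sparc, a matrix protein, had 21 and 15 counts in control (112 and 47.9 CPM) and 4 and 15 in cKO (16.2 and 169 CPM). Col3a1, a fibrillar collagen, had 7 and 17 counts in control (37.4 and 54.3 CPM) and 3 and 26 in cKO (12.1 and 292 CPM). In Vim, Sparc and Col3a1 alike, cKO replicate 1 lay below both controls and cKO replicate 2 above both. The part of fibroblast RNA in the Postn result was not tested.

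Krt79 was higher in both cKO libraries but missed the threshold. Keratin 79 is made in the infundibulum and in the duct of the sebaceous gland. The gene lies on chromosome 15 from 101837767 to 101848759, minus strand. It had 51 and 80 counts in control replicates 1 and 2 (272 and 255 CPM) and 223 and 94 counts in cKO replicates 1 and 2 (902 and 1056 CPM). The groups did not overlap, and the counting intervals of the controls (203 to 358 CPM) stayed below those of the cKO libraries (787 to 1293 CPM). Krt79 averaged 264 ± 11.8 CPM in control and 979 ± 109 CPM in cKO (SD, n = 2 each), and the ratio of pooled counts was 3.60 (2.93 to 4.45). Its fitted log2 fold change was 1.89 ± 0.42 SE (edgeR, adjusted p = 0.0677, unadjusted p = 0.000625). DESeq2 (adjusted p = 0.00926), limma-voom (0.0368), the fits without a filter on counts (0.0416) or with one at 10 CPM (0.0499) and the fit without cKO replicate 1 (0.0323) called it.

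Krt75 was lower in both cKO libraries and also missed the threshold. The gene lies on chromosome 15 from 101471780 to 101482339, minus strand, in the same type II keratin cluster as Krt79. Control replicates 1 and 2 had 81 and 312 counts (432 and 996 CPM), and cKO replicates 1 and 2 had 42 and 18 counts (170 and 202 CPM). The groups did not overlap, but the controls differed from each other by more than their counting intervals (343 to 537 and 889 to 1113 CPM). Krt75 averaged 714 ± 399 CPM in control and 186 ± 23.0 CPM in cKO (SD, n = 2 each), and the ratio of pooled counts was 0.227 (0.170 to 0.299). Its fitted log2 fold change was -1.96 ± 0.50 SE (edgeR, adjusted p = 0.120, unadjusted p = 0.00177). It became -1.21 without control replicate 2 (adjusted p = 0.905), the library with the highest level, and -2.43 without control replicate 1 (adjusted p = 0.0130). Library totals as the only scaling (adjusted p = 0.0469) and no count filter (0.0115) also called it. Of all tested genes 0.189% were called as lower.

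In these bulk samples, fewer cells of a type and less RNA per cell cannot be told apart. A ratio of 2 genes within a library does not depend on how libraries are scaled, and the ratios given here were chosen after the values were seen and carry no test. In the controls Krt79 had 0.630 (0.435 to 0.905) and 0.256 (0.198 to 0.329) counts for each Krt75 count. In cKO replicates 1 and 2 the ratio was 5.31 (3.80 to 7.57) and 5.22 (3.13 to 9.19). Krt75 outnumbered Krt79 in both controls, and Krt79 outnumbered Krt75 in both cKO libraries.

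**Figure D2:**
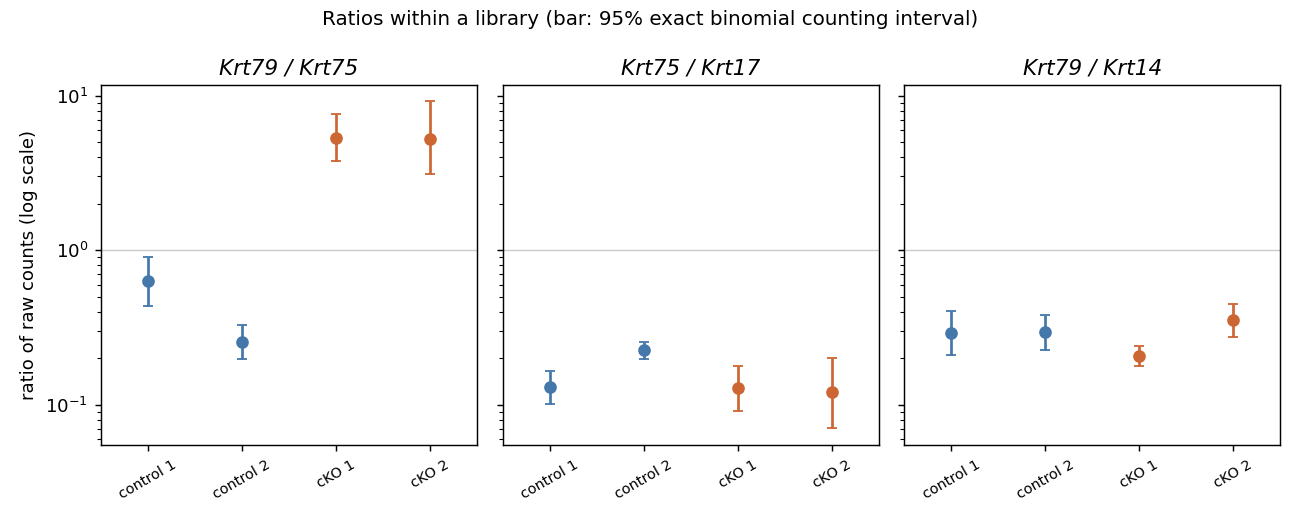
Ratio of raw counts of 2 genes within each library (vertical log axis, no unit) for Krt79 to Krt75, Krt75 to Krt17 and Krt79 to Krt14, with bars for the 95% exact binomial interval. The ratio of Krt79 to Krt75 is below 1 in both controls and above 5 in both cKO libraries, while in each of the other ratios at least 1 control has a counting interval that overlaps those of the cKO libraries.

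Other keratins give the setting for this pair. Krt17, a keratin of the outer root sheath and infundibulum, had 3314 and 4436 CPM in control and 1314 and 1652 CPM in cKO replicates 1 and 2 (log2 fold change -1.39 ± 0.43 SE, edgeR adjusted p = 0.264). Krt75 held a like ratio to Krt17 in control replicate 1 (0.130), cKO replicate 1 (0.129) and cKO replicate 2 (0.122), and a higher one in control replicate 2 (0.225). Krt15, a keratin of bulge and basal cells, had 2855 and 2098 CPM in control and 841 and 1551 CPM in cKO (-1.06 ± 0.46 SE, adjusted p = 0.526). Krt14, the keratin whose promoter drives the Cre, had 928 and 865 CPM in control and 4355 and 3001 CPM in cKO (2.04 ± 0.44 SE, adjusted p = 0.0507). Krt79 had 0.293 and 0.295 counts for each Krt14 count in control replicates 1 and 2, and 0.207 and 0.352 in cKO. Against Krt17, Krt79 had ratios of 0.0821 and 0.0576 in control and 0.686 and 0.639 in cKO, and against Krt14, Krt75 had 0.466 and 1.15 in control and 0.0390 and 0.0674 in cKO, so neither of these ratios overlapped between the groups. Postn had 0.0402 and 0.0406 counts for each Krt14 count in control and 0.0529 and 0.0712 in cKO. The counting intervals of this ratio overlapped between all 4 libraries. Krt5, another basal keratin, had 1382 and 1194 CPM in control and 2576 and 1281 CPM in cKO (0.59 ± 0.45 SE, edgeR adjusted p = 0.842), so its groups overlapped. Ratios to Krt14 therefore carry the difference in Krt14 itself and are no measure of basal cell content, which was not tested.

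Of 7 keratins listed for the outer sheath and companion layer, 6 could be tested, and 2 were called higher and 0 lower (edgeR; 3 higher and 1 lower at an unadjusted p under 0.05, 3 higher and 0 lower with DESeq2, 2 higher and 0 lower with limma-voom). The 2 called were Krt6a and Krt6b, stress-induced partners of keratins 16 and 17 that the companion layer also makes. Krt6a rose from 4 and 9 counts in control to 117 and 96 in cKO (log2 fold change 4.87 ± 0.60 SE, edgeR adjusted p = 0.00062). Krt6b had 1 and 2 counts in control and 143 and 53 in cKO, a pooled ratio of 97.2 (32.8 to 476). Krt6a and Krt6b are near-identical, and how reads shared between them were counted is not given in the sources used here. Krt75, a companion layer keratin too, thus had lower values in cKO than in control where Krt6a and Krt6b rose. Among the reference transcripts the closest match of Krt75 to Krt6a was 80.2% identical over 1169 bases and that of Krt79 to Krt75 was 73.1% over 1063 bases, and neither gene had a copy of at least 95% identity over at least 150 bases.

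**Figure D3:**
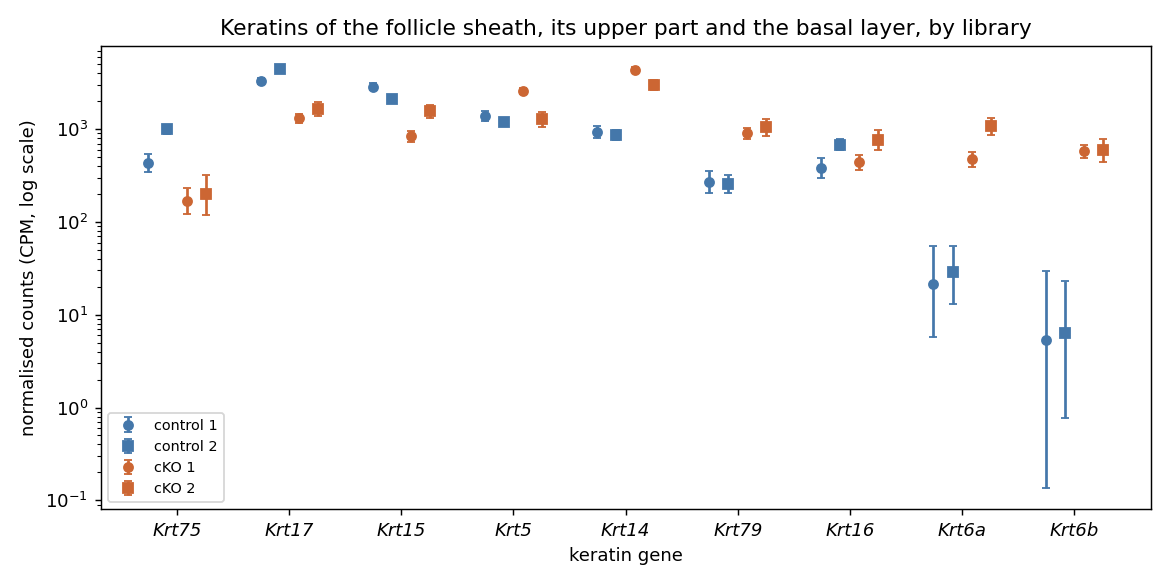
Normalised counts (CPM, vertical log axis) of 9 keratins in the 4 libraries (circles, replicate 1, and squares, replicate 2), with bars for the 95% Poisson interval. Krt75, Krt17 and Krt15 lie lower and Krt14, Krt79, Krt6a and Krt6b higher in both cKO libraries, and Krt5 and Krt16 overlap between the groups.

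The markers of the isthmus and gland junction had too few counts to be tested with the filter. Plet1, a surface protein of isthmus stem cells, had 2 and 12 counts in control replicates 1 and 2 (10.7 and 38.3 CPM) and 10 and 11 in cKO replicates 1 and 2 (40.4 and 124 CPM). The 2 nearest libraries, control replicate 2 and cKO replicate 1, differed by less than 1 count is worth. Lrig1, a transmembrane protein that dampens EGF receptor signalling, had 8 and 7 counts in control (42.7 and 22.4 CPM) and 9 and 10 in cKO (36.4 and 112 CPM), and the groups overlapped. Lgr6, a receptor for R-spondins, the secreted proteins that strengthen Wnt signals, had 0 and 13 counts in control and 0 and 2 in cKO. Of the 15 counts of Lgr6, 13 came from control replicate 2, and its pooled ratio was 0.229 (0.0251 to 1.01).

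The bulge markers also had few counts. Sox9, a transcription factor of the bulge and outer root sheath, had 8 and 6 counts in control (42.7 and 19.2 CPM) and 4 and 4 in cKO (16.2 and 45.0 CPM), so the groups overlapped. Lhx2, a transcription factor of bulge and hair germ cells, had 0 and 1 counts in control and 2 and 7 in cKO. The pooled ratio of Lhx2 was 13.4 (1.86 to 587), and 7 of its 10 counts came from cKO replicate 2. Lgr5, the R-spondin receptor of the lower bulge, had 2 and 1 counts in control and 2 and 2 in cKO. Cd34, a sialomucin of the bulge surface, had 2 and 2 counts in control and 0 and 1 in cKO. No fold is given for Lgr5 and Cd34, since every library was at or under 3 counts and a difference was not detectable at this depth.

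In the fit without a count filter the 7 low members were tested too, and none passed. Their adjusted p-values ran from 0.836 for Lhx2 (log2 fold change 3.80 ± 1.61 SE, unadjusted p = 0.0186) to 0.978 for Sox9 (-0.24 ± 1.01 SE). In that fit Krt75, Krt79 and Postn passed, that is 3 of 10 members where 0.437% of 17179 genes passed. These 3 are the members with enough counts for the filter, and many of the 17179 genes had too few counts to pass. The members were also chosen with earlier results of these data known, so such shares are no test of the members as a group. The observed values did not overlap between the groups for 5 of the 10 members (Krt79, Postn, Plet1 and Lhx2 higher, Krt75 lower), against 27.2% of all genes with a count and 38.5% of the tested genes (18.9% higher and 19.6% lower). For Lhx2 this is within what counting allows, since its 0 in control replicate 1 permits up to 16.0 CPM and cKO replicate 1 was at 8.09 CPM. The 7 low members summed to 117 and 134 CPM in control replicates 1 and 2, 109 in cKO replicate 1 and 416 in cKO replicate 2 (293 to 573). Thus 1 library, cKO replicate 2, stood apart from the other 3, which had interval bounds between 72.0 and 181 CPM. It was also the library with the highest fibroblast sum and the highest sum of 9 sebaceous gland markers (2562 CPM against 906 to 1163 in the others). Their part in the sum of the low members was not tested.

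Genes that act with the members were taken from written lists. Of 28 other bulge and stem cell genes, 12 were tested and 0 were called (edgeR; 0 higher and 1 lower, Krt15, at an unadjusted p under 0.05, and 0 with DESeq2 or limma-voom). Their median log2 fold change was 0.14 and that of all tested genes was 0.01. Nfib, a nuclear factor of bulge stem cells, had 571 ± 113 CPM (SD, n = 2) in control and 634 ± 9.80 CPM (SD, n = 2) in cKO. Itga6, the integrin used to sort basal and bulge cells, had 360 ± 117 and 377 ± 295 CPM (SD, n = 2 each) in the same order. Neither of these differences exceeded the spread between libraries.

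Of 15 other genes of the isthmus, infundibulum and gland duct, 11 were tested, with a median log2 fold change of 0.89. By edgeR 1 was called higher and 0 lower (3 higher and 2 lower at an unadjusted p under 0.05). The 2 lower were Krt17, given above and also in this list, and Krt80 (log2 fold change -1.21 ± 0.54 SE, edgeR adjusted p = 0.557). The call was Fabp5, a fatty acid-binding protein of differentiating keratinocytes and sebocytes, which rose from 26 and 77 counts in control to 175 and 111 in cKO (2.31 ± 0.49 SE, edgeR adjusted p = 0.0424). Library totals, the replicate block and leaving out control replicate 1 left 0 calls in this list, and DESeq2, no count filter and leaving out cKO replicate 1 gave 2, all higher. The median of the list fell to 0.27 without cKO replicate 1, among 10 tested. Cst6, a protease inhibitor of the cornified layer and infundibulum, had 435 and 642 counts in control and 1007 and 1426 in cKO (adjusted p = 0.147), and cKO replicate 2 alone was at 16026 CPM against 4072 in cKO replicate 1.

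Of 32 R-spondin and Wnt signalling genes 27 had a count, 5 were tested and 0 were called (edgeR; 0 higher and 1 lower, Wnt3, at an unadjusted p under 0.05, and 0 with DESeq2 or limma-voom). Lgr4 is the receptor related to Lgr5 and Lgr6. It had 1 and 4 counts in control (5.34 and 12.8 CPM) and 8 and 3 in cKO (32.3 and 33.7 CPM). Rspo3, an R-spondin, had 4 and 5 counts in control (21.3 and 16.0 CPM) and 0 in both cKO libraries. A count of 0 allows up to 33.7 CPM in cKO replicate 2, so absence there was not detectable. In the fit without a count filter neither Lgr4 nor Rspo3 passed (edgeR adjusted p = 0.911 for each). These 2 genes were named after their values were seen. Ctnnb1, which encodes beta-catenin, had 112 ± 0.204 CPM (SD, n = 2) in control and 222 ± 131 CPM (SD, n = 2) in cKO (adjusted p = 0.716). Wnt3, a Wnt ligand of the epidermis, had 185 ± 32.0 and 74.6 ± 26.0 CPM (SD, n = 2 each) in control and cKO (adjusted p = 0.495). Tle4, a corepressor of Wnt targets, had 87.4 ± 25.5 and 72.6 ± 23.2 CPM (SD, n = 2 each) in the same order. Of 17 EGF receptor signalling genes, which Lrig1 restrains, 4 were tested and 0 were called (edgeR; 0 higher and 1 lower at an unadjusted p under 0.05, and 0 with DESeq2 or limma-voom). The 1 lower was Btc, the EGF receptor ligand betacellulin, with 19 and 92 counts in control and 8 and 0 in cKO (log2 fold change -3.17 ± 0.80 SE, adjusted p = 0.106). Without a count filter Btc was called lower (edgeR adjusted p = 0.00157), and with a filter at 10 CPM 1 gene of this list was called lower. Erbb2, a partner receptor of the EGF receptor, had 20 and 52 counts in control and 19 and 7 in cKO, and Lrig3, a relative of Lrig1, had 12 and 27 in control and 30 and 1 in cKO.

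Of 12 inner root sheath genes, 3 were tested and 0 called (edgeR; 1 lower at an unadjusted p under 0.05, and 1 lower each with DESeq2 and limma-voom). The 1 lower was Tchh, trichohyalin of the inner root sheath, at 1321 ± 71.0 CPM (SD, n = 2) in control and 346 ± 76.4 CPM (SD, n = 2) in cKO (adjusted p = 0.0677). Gata3 is a transcription factor of the inner root sheath. It had 41 and 80 counts in control (219 and 255 CPM) and 44 and 8 in cKO (178 and 89.9 CPM). Dsc1, a desmosomal cadherin, had 3 and 31 counts in control (16.0 and 99.0 CPM) and 28 and 6 in cKO (113 and 67.4 CPM). The other 9 listed genes, with the keratins Krt25 to Krt28 and Krt71 to Krt74 among them, had at most 7 counts in any library. Of 16 hair germ and matrix genes, 1 (Ovol1, a transcription factor of hair and epidermal differentiation) was tested, with 106 ± 66.9 CPM in control and 46.7 ± 2.52 CPM in cKO (SD, n = 2 each, adjusted p = 0.716), and Shh, Edar, Bmp4 and Wif1 had 0 counts in all libraries. Markers of skeletal muscle moved with the groups. The 8 of them summed to 1414 and 932 CPM in control and 44.5 and 89.9 CPM in cKO, and 4 of the 6 tested (Tnnc2, Myh4, Acta1 and Pvalb) were called lower by edgeR, against 2 with DESeq2, 1 with the replicate block and 0 with limma-voom. Myh4, a fast myosin heavy chain, had 37 and 32 counts in control and 0 in both cKO libraries. The 9 mast cell and leukocyte markers, with 1729 and 1118 CPM in control and 570 and 1135 CPM in cKO, overlapped between the groups in their sum. Cd74 gave most of that sum, with 231 of 324 and 239 of 350 counts in control and 95 of 141 and 69 of 101 in cKO. Of the 4 tested, 0 were called by edgeR, and 1 had a log2 fold change above 0 and 3 below. Ptprc, with 139 and 57.5 CPM in control and 8.09 and 45.0 CPM in cKO, was lower at an unadjusted p under 0.05 (edgeR). The part of muscle and leukocyte RNA in the results for Krt75, Krt79 and Postn was not tested.

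**Figure D4:**
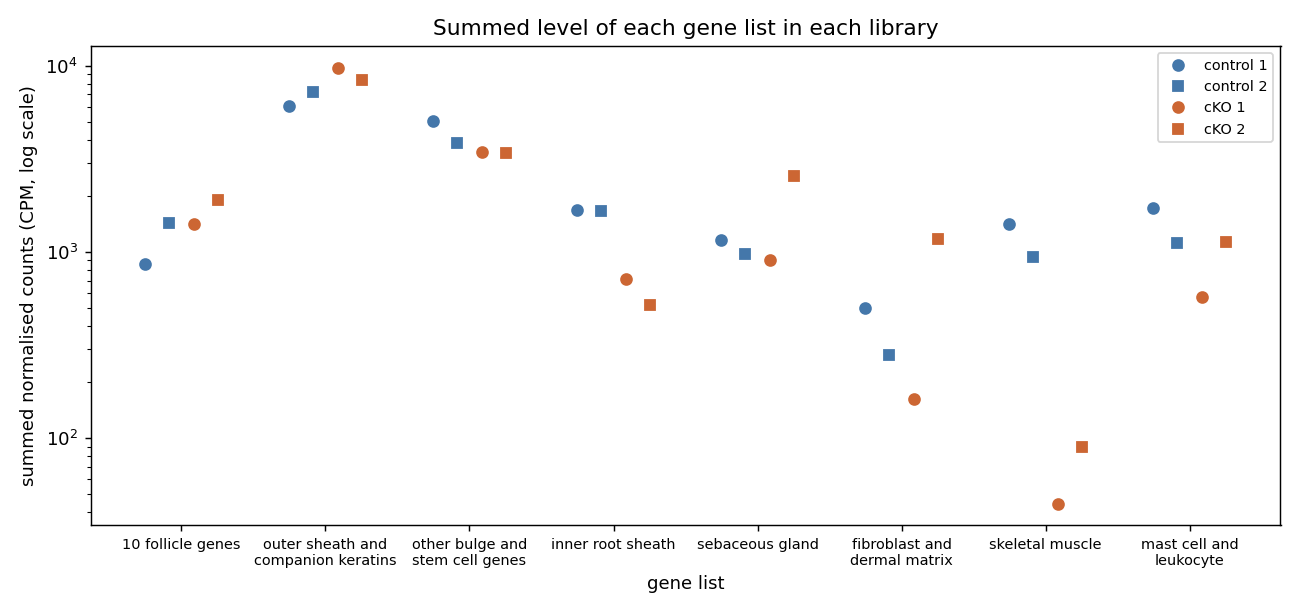
Summed normalised counts (CPM, vertical log axis) of the 10 follicle genes and 7 gene lists in each library (circles, replicate 1, and squares, replicate 2). The sums of inner root sheath and skeletal muscle genes are lower in both cKO libraries, and cKO replicate 2 has the highest sebaceous gland and fibroblast sums. Tchh alone gives most of the inner root sheath counts, with 257 of 314 and 398 of 520 in control and 99 of 176 and 26 of 46 in cKO.

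The tested genes whose levels varied over the 4 libraries most like those of the 2 most abundant members were found by the root mean square distance of centred log2 CPM. Nearest to Krt79 were Gm6551 (0.107), Gm5559 (0.123) and Sdr42e1 (0.134), which had at most 23 counts in any library. Nearest to Krt75 were Ypel2 (0.125), Kctd12 (0.132) and Rab11fip4 (0.211), of which Kctd12 had 35 and 114 counts in control and 17 and 6 in cKO. With 4 libraries such nearness describes these libraries only.

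The tests of Krt75, Krt79 and Postn were repeated under 12 other analyses, and the plot of fold changes by analysis gives all of them. In each of the 3 genes the direction was the same in all 12, while the call was not. All 12 reuse the same libraries, and the groups did not overlap in these genes, so the direction had little room to change.

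**Figure D5:**
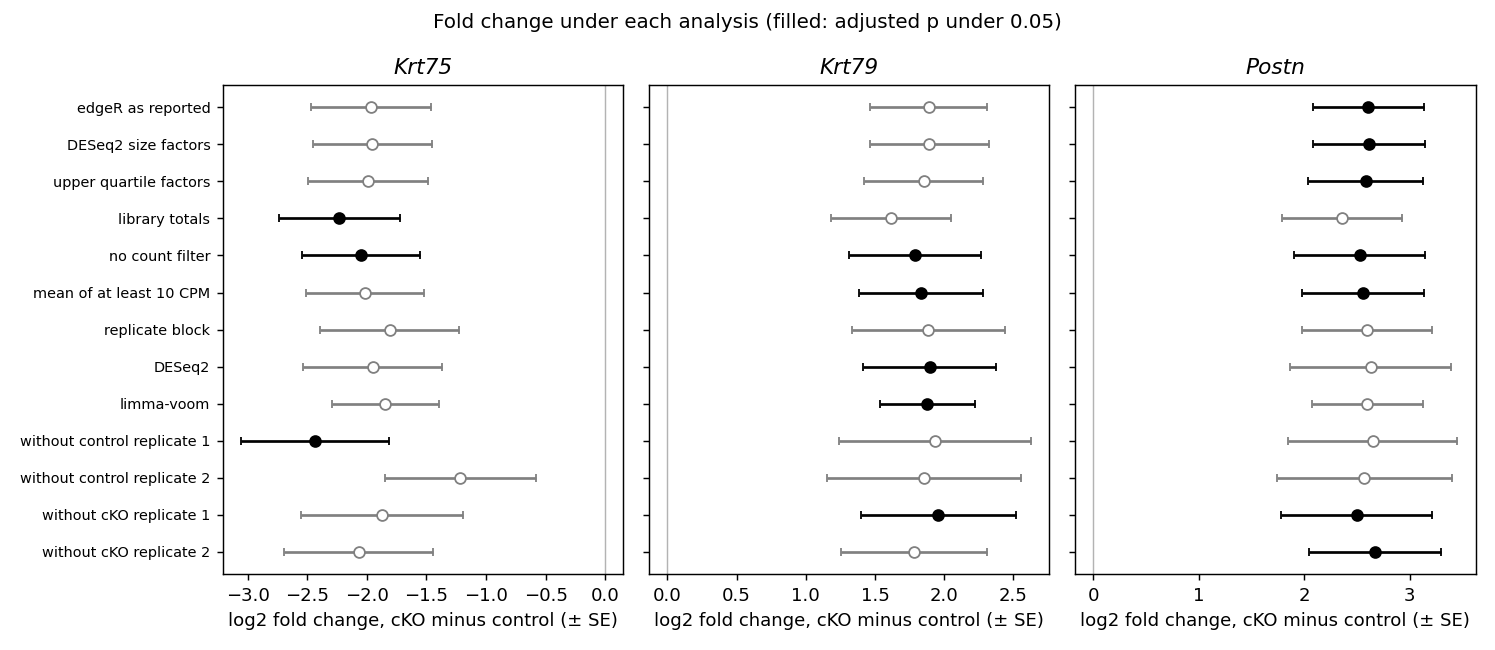
Log2 fold change of cKO over control (horizontal axis, bars ± SE) of Krt75, Krt79 and Postn in the reported edgeR fit and 12 other analyses, with filled points for an adjusted p under 0.05. Krt75 is below 0 and Krt79 and Postn are above 0 throughout, and Krt75 moves closest to 0 (-1.21) without control replicate 2.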

How the data were processed

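The deposited table holds whole-number counts per gene for 4 libraries, made by the authors without normalisation. The submitters' processing notes list Trim Galore 0.6.7, Trimmomatic 0.39, cutadapt 3.7, STAR 2.7.10a, featureCounts 2.0.1 and the build GRCm39. The use of strand, of molecular identifiers and of reads with several alignments is not given in the sources used here. Gene positions are as the table gives them, apart from the GRCm38.p6 coordinates of the RefSeq start regions. Libraries were made with the QIAseq UPX 3' kit, per the labels' protocols, and 0 per-sample columns were left unused.

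The filter was edgeR's filterByExpr with a minimum count of 10 and a minimum total of 15, and the genes it left held 87.6% of counts. Libraries were scaled with TMM and tested with edgeR 4.0.16 (glmQLFit, glmQLFTest, R 4.3.3) with genotype as the only term and Benjamini-Hochberg adjustment over 4243 genes at 0.05. Standard errors were derived from the log2 fold change and its F statistic. Alternatives used DESeq2 1.42.0, limma 3.58.1, other scalings and filters, a replicate block and each library left out. On simulated data with a planted log2 change of 3 in 200 genes the test recovered 81.3% to 91.0% of those that passed the filter. That change is larger than those fitted for Krt75 (-1.96), Krt79 (1.89) and Postn (2.61), so recovery at their size was not measured. Transcript similarity came from blastn 2.17.0 on GENCODE M21. Exons of Krt75, Cd34, Plet1 and Lrig1 share 129 to 261 bases with a gene on the opposite strand, whose counts were at most 6 in all.

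The members and the gene lists were chosen with earlier results of these data known. The rule for named genes took the 10 members, Stim1 and Stim2, the 3 most abundant and every called gene of each list, and the 3 nearest profiles of the 2 most abundant members. Genes it took from the sebaceous gland, endothelial, leukocyte and hair germ lists, Ovol1 and Cd74 apart, are not given singly. Tnnc2, Acta1 and Pvalb of the muscle list are named without their values. Lgr4, Rspo3, Ptprc and the gene ratios were added after values were seen. The 14 lists are those of the 10 members, other bulge genes, hair germ, isthmus and duct, outer sheath keratins, inner root sheath, Wnt, EGF receptor, interfollicular epidermis, sebaceous gland, fibroblast, endothelium, skeletal muscle and leukocytes.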

Additional observations from a re-analysis of the deposited data

How the results depend on the processing

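Krt75, Krt79 and Postn kept their direction in all 12 alternatives, which reuse the same libraries and so give no independent support. Postn, called in the reported fit, was not called with library totals (log2 fold change 2.36), the replicate block (2.60), DESeq2 (2.63) or limma-voom (2.60), and ranged from 2.50 to 2.67 with a library left out. Krt79 was called without a count filter (1.79), with a 10 CPM filter (1.83), DESeq2 (1.90) and limma-voom (1.88), and ranged from 1.78 to 1.96 with a library left out. Krt75 was called with library totals (-2.23) and without a count filter (-2.05), and ranged from -2.43 to -1.21 with a library left out. Library totals moved the median log2 fold change of all genes by -0.245. The log2 ratio of the summed members was -0.39 without Krt79 and 0.22 to 0.94 with a library left out. Over all genes, 28 higher and 8 lower calls became 49 and 26 without a count filter, 12 and 3 with limma-voom, 26 and 15 with library totals, and 40 and 15 under the 10 CPM filter (mean of at least 10 CPM). With a library left out they ranged from 34 to 59 and from 8 to 34. The labels do not say whether same-numbered libraries were paired. Deviations of same-numbered libraries had a correlation of -0.20 across 4243 genes, which with so few libraries cannot settle it. The replicate block gave 16 and 1 calls, and with crossed numbers, an alternative chosen after seeing the data, 90 and 57. The cause of these differences was not tested. For the 7 members under the filter, the depth limits what can be seen, most of all in cKO replicate 2.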
